A study of Mus musculus with 472 samples.

Results

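The 10 genes described here, Fos, Fosb, Junb, Egr1, Egr3, Arc, Npas4, Nr4a1, Nr4a2 and Nr4a3, are immediate early genes that neurons switch on after activity. They were chosen by name from the 55450 genes of the deposited table, and all 10 were found in it. The table covers 1 group of single retinal ganglion cells, whose axons form the optic nerve, taken from C57BL/6J mice at an age of 7 to 9 weeks. Each cell was patched in an isolated, flat-mounted retina, recorded while blue and green light spots were shown, and then aspirated for Smart-seq2, a full-length RNA-seq protocol without molecular identifiers. All cells went through this procedure. There was no untreated, unstimulated or unpatched group, so no level below has a baseline to be set against, and the labels do not give the time from stimulation to aspiration. The labels name no animals. All cells together are therefore counted as 1 sample, no test was made between cells, and the values are descriptions.

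Immediate early genes need no new protein for their induction: calcium entry and kinase signalling act on factors already bound at their promoters, among them CREB and SRF, and transcription starts within minutes. Most of them encode transcription factors that act in turn on a later wave of genes. Fos and Fosb proteins pair with Jun family proteins such as Junb to form AP-1, Egr1 and Egr3 are zinc finger factors, Npas4 is a factor that responds to calcium entry in neurons, and Nr4a1, Nr4a2 and Nr4a3 are orphan nuclear receptors. Arc is the exception, a protein of the synapse that takes part in removing AMPA receptors from the membrane. In the retina, staining for Fos and Egr1 has long been used to mark cells activated by light.

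The median depth was 5184792 gene counts, with extremes of 58907 and 13004880, and 7 cells had under 1000000. Levels are given as CPM, counts per 1000000 gene counts without spike-in RNAs, and 10 CPM is the level from which a gene is called positive. The median cell had 5554.5 positive genes and the highest 8937. The names of the libraries divide the cells over 5 sequencing runs: run A holds 49.6% of them, B 98 cells, C 62, D 59 and E 19. Cells of run D had a median of 3024 positive genes, against 5253.5 to 6563 in the other runs. The ganglion cell label held for most cells: 95.6% were positive for 6 or more of 12 genes shared by ganglion cells.

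The 10 genes fell into 3 levels of use. Fos, Egr1, Junb and Fosb were each positive in most cells, Nr4a1, Npas4 and Arc in a minority, and Nr4a3, Nr4a2 and Egr3 in few. At least 1 of the 10 was positive in 94.5% of cells (exact 95% interval 92.03% to 96.4%). Intervals of shares throughout are Clopper-Pearson intervals that cover counting error only, since reads without molecular identifiers are not independent molecules and cells of 1 animal are not independent cells. Summed over the 10 genes, the level ran from 0.184 to 6063 CPM with a median of 848 CPM, and Fos made up 55.3% of the mean summed level, Egr1 17.9%, Junb 11.6% and Fosb 8.58%.

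The promoters of the 7 members that could be matched share a short sequence feature. It is shown here for the most common AP-1 genes with a full window (Fos and Junb). The others shown are Nr4a1 and Npas4 from the middle group and Nr4a2 from the rare one. RefSeq promoter sequences (GRCm38.p6) matched 7 of the 10 members, all but Egr1, Egr3 and Arc. In the 250 bases before each start, TGACG, the core of the CREB binding site and contained in the full site TGACGTCA, was searched on both strands. Each sequence is printed 5′ to 3′ on the gene's strand, with TGACG or its reverse complement CGTCA in capitals. The windows are chr12:85473640-85473889 on the plus strand for Fos, chr8:84978749-84978998 on the minus strand for Junb, chr15:101266596-101266845 on the plus strand for Nr4a1 and chr2:57124004-57124253 on the minus strand for Nr4a2. For Npas4 only a stretch of 26 bases is printed, chr19:4990131-4990156 on the minus strand, because its window lies in an annotated exon.
Fos: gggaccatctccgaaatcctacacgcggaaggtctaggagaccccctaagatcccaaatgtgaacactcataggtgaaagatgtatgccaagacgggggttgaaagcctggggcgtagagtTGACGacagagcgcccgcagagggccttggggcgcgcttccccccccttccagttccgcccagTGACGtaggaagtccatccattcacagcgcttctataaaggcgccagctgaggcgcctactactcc
Junb: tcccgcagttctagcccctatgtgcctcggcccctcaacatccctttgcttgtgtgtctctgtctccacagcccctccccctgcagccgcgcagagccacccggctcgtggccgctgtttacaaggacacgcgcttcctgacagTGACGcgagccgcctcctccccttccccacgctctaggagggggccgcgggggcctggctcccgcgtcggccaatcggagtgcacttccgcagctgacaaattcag
Npas4: gttcgaCGTCAcgggaTGACGtcgga
Nr4a1: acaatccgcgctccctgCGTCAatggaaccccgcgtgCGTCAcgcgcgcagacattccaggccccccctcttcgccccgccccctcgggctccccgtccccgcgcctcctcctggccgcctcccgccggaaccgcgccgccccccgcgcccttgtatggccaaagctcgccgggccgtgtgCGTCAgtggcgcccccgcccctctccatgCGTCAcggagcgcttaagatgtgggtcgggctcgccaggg
Nr4a2: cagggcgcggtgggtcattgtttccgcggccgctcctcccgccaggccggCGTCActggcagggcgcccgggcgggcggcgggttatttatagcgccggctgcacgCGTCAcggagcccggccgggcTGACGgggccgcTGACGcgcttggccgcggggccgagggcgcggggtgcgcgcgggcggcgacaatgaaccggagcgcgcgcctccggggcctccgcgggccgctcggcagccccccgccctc
All 7 matched members had TGACG at least once, and 5 of them, Fos, Npas4, Nr4a1, Nr4a2 and Nr4a3, had it 2 times or more. Over all 32851 promoters of the table the shares were 17.8% and 3.90%. These promoters were not matched to the members in base content. The site nearest to the start ended 62 bases before it in Fos, 56 in Fosb and 36 in Nr4a1, and more than 100 bases before it in Junb, Npas4, Nr4a2 and Nr4a3. Nr4a1, Nr4a2 and Nr4a3 held 4 sites each, and 0.688% of all promoters held 3 or more. A higher number of sites did not go with a higher share of positive cells. Nr4a1, Nr4a2 and Nr4a3, with 4 each, were positive in 23.7%, 2.33% and 3.81% of cells. Fosb and Junb, with 1 each, were positive in 66.1% and 68.6%, and Fos and Npas4, with 2 each, in 86.4% and 19.5%. The unbroken site TGACGTCA was in none of the 7 windows (1.55% of all promoters), TATAAA was in that of Fos alone (7.59%), and the CArG box, the SRF binding motif, was in none (1.47%). Absence from these windows says only that these letters are not there, and a match is not evidence of binding.

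Fos, the founding member of its family (chromosome 12, 85473890 to 85477273 in mm10), was the most widespread of the 10. It was positive in 86.4% of cells (83.02% to 89.4%) and listed at 0 in 6 cells. Its level ran from 0 to 3877 CPM with a median of 445.9 CPM and quartiles of 153.8 and 908.7 CPM, and 22.03% of cells were at 1000 CPM or more. From run A to run E the medians were 568.5, 295.5, 354.004, 376.2 and 503.8 CPM, and the shares of positive cells 94.02%, 77.6%, 83.9%, 71.2% and 94.7%. Runs B and D had the lowest shares. The runs overlapped over nearly their whole range, with highest values of 2208 to 3877 CPM. Most cells negative for Fos were not without reads: 58 of the 64 had a count below the threshold.

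Fosb, which lies on chromosome 7 (19302696 to 19310051) and encodes the closest relative of Fos among the 10, was lower. It was positive in 66.1% of cells (61.6% to 70.4%), with a median of 39.99 CPM and a highest value of 904 CPM. From A to E the run medians were 67.3, 12.4, 63.1, 6.51 and 103.5 CPM. Runs B and D again stood lowest, with 51.02% and 49.2% of their cells positive. Fos and Fosb were both positive in 300 cells, 1 of them in 120 and neither in 52.

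Junb, a Jun family partner of the Fos proteins (chromosome 8, 84974484 to 84978718), reached the threshold in 68.6% of cells (64.2% to 72.8%) with a median of 55.9 CPM. Its highest cell, in run D, reached 4063 CPM, while the next cell was at 1183 CPM. Run medians fell between 19.1 CPM in D and 81.3 CPM in A. Exons of Junb overlap those of Prdx2, a peroxiredoxin gene, on this chromosome, and it is not stated whether the counting used strand. The levels of the 2 genes had a Spearman rank correlation (rho) of -0.002 over all cells, 20 Junb-positive cells were negative for Prdx2, and Prdx2 was at 0.594 CPM in the cell highest for Junb. Fos, Fosb and Junb were positive together in 49.4% of cells.

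Egr1, a zinc finger factor induced in many tissues (chromosome 18, 34859823 to 34864984), came second to Fos in share. It was positive in 76.9% of cells (72.8% to 80.6%), with a median of 107.8 CPM, quartiles of 16.2 and 277.9 CPM and a highest value of 1834 CPM in run A. From A to E the run medians were 138.8, 52.7, 101.07, 98.02 and 195.05 CPM, so run B was lowest. Its relative Egr3 (chromosome 14, 70077203 to 70082614), which is also induced by activity in neurons, stood at the other end of the range. Egr3 was positive in 8 cells (1.69%, 0.735% to 3.31%), at 107.7, 69.1, 40.4, 40.1, 19.7, 14.9, 12.03 and 10.5 CPM, and had a count below the threshold in 19 others. These 8 cells came from all 5 runs, and each was also positive for Fos, Fosb and Egr1.

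Nr4a1, the most common of the 3 nuclear receptor genes (chromosome 15, 101254269 to 101274795), reached the threshold in 23.7% of cells (19.96% to 27.8%). Its median over positive cells was 55.1 CPM. The highest value, 1607 CPM in run D, stood apart from the next, 743 CPM in run A. From A to E its shares were 26.1%, 17.3%, 16.1%, 33.9% and 21.1%. Run D, where Nr4a1 was most often positive, was the run with the lowest shares of Fos (71.2%), Junb (50.8%) and Fosb (49.2%) and the fewest positive genes per cell.

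The other 2 receptor genes were rare. Nr4a3 (chromosome 4, 48045153 to 48086447) was positive in 18 cells (3.81%, 2.28% to 5.96%) and never passed 79.4 CPM. Nr4a2 (chromosome 2, 57106830 to 57124003), known for its role in dopamine neurons, was positive in 11 cells (2.33%, 1.17% to 4.13%). Its levels there were 795.2, 158.2, 84.9, 77.1, 69.8, 58.2, 32.2, 25.4, 23.9, 20.03 and 10.9 CPM. The cell at 795.2 CPM, in run A, had 1696 positive genes, while the other 10 had 5650 to 7762. No cell was positive for all 3 receptor genes, 11 were positive for 2, 25.2% of cells for 1 and 72.5% for none.

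Npas4 (chromosome 19, 4984355 to 4990316), a basic helix-loop-helix factor largely restricted to neurons, was positive in 92 cells (19.5%, 16.01% to 23.4%). The level in these cells had a median of 55.6 CPM and a highest value of 423.7 CPM. Shares by run lay close together, from 15.3% in D to 26.3% in E. All 92 cells were positive for 6 or more of the 12 ganglion cell genes. Arc (chromosome 15, 74669083 to 74672570) was positive in 68 cells (14.4%, 11.4% to 17.9%), with a median of 89.97 CPM over these cells. Arc reached higher levels than Npas4, up to 1051 CPM, in fewer cells, and its share ran from 6.45% in run C to 21.1% in run E.

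**Figure D1:**
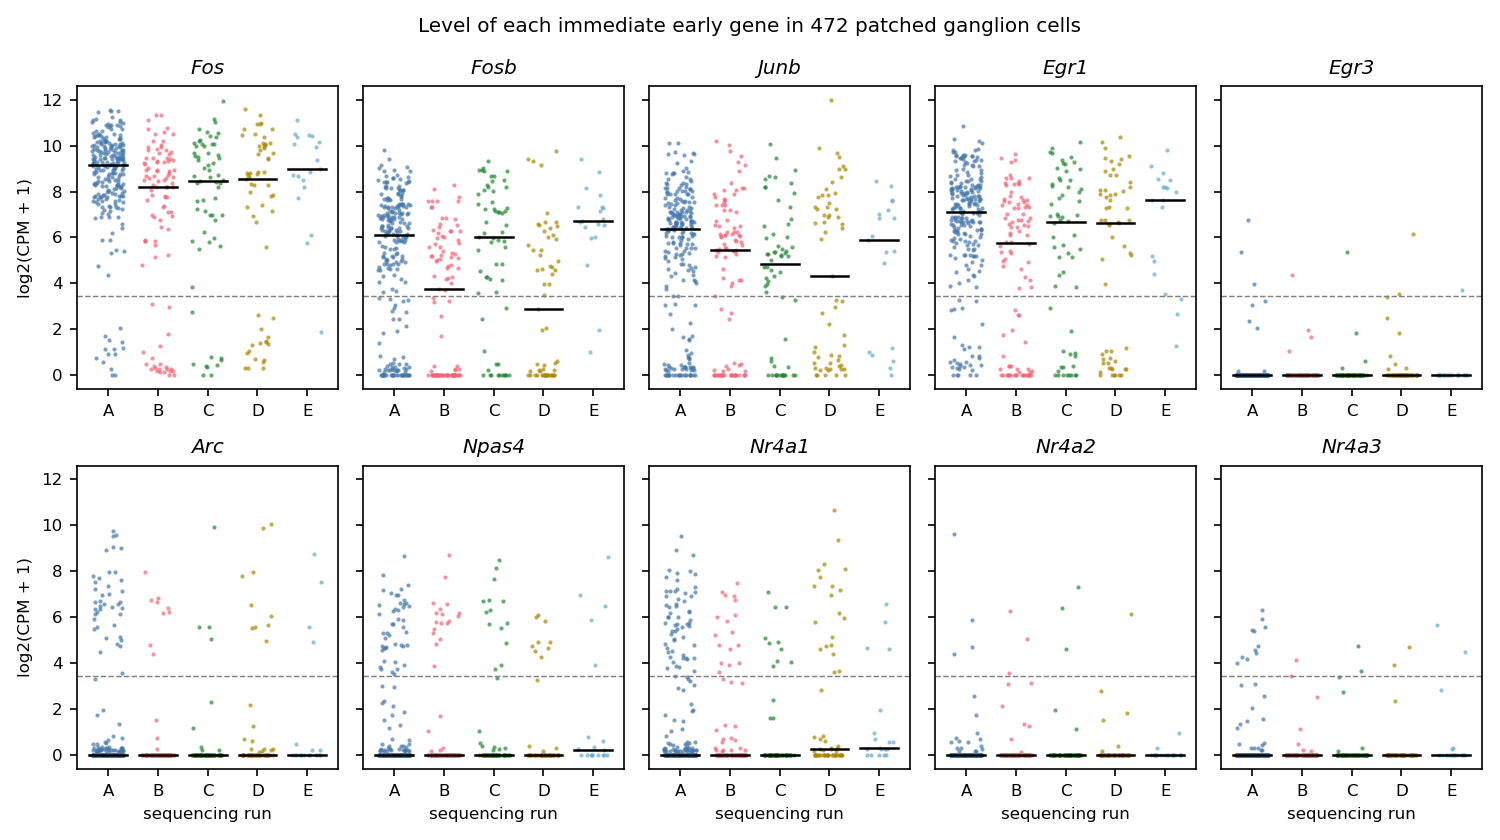
Level of each of the 10 immediate early genes as log2(CPM + 1) on the vertical axis, by sequencing run on the horizontal axis; each point is 1 cell, black bars are run medians and the dashed line is the 10 CPM threshold. Fos sits far above the threshold in most cells of every run, while Egr3, Nr4a2 and Nr4a3 are above it in 8, 11 and 18 cells.

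For Fos, Fosb, Junb and Egr1 the plot of levels by run shows cells spread well above the threshold and a second group near 0. Positive cells were the majority in each run for these 4 genes, with the exception of Fosb in run D (49.2%), and by little for Fosb in run B (51.02%) and Junb in run D (50.8%). For Arc, Npas4 and Nr4a1 most cells are near 0. The highest values by run ran from 307.5 to 904 CPM for Fosb and up to 4063 CPM for Junb.

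To compare genes with each other, CPM was divided by the length of the union of a gene's exons in kilobases (GENCODE release 21). The mean level per kilobase was 265.05 for Fos, 56.9 for Junb, 44.9 for Egr1, 15.5 for Fosb, 8.97 for Arc, 7.49 for Nr4a1 and 3.80 for Npas4. Those of Nr4a2, Nr4a3 and Egr3 were 0.734, 0.224 and 0.176 CPM per kilobase. Fos was the highest of the 10 per kilobase in 82.8% of cells, Junb in 42 cells and Egr1 in 20. Several neighbours in this order could not be told apart cell by cell. Junb was above Egr1 in 49.2% of cells and below it in 47.9%, with medians of 24.3 and 24.1 CPM per kilobase, and Nr4a2 was above Nr4a3 in 40 cells and below it in 46. Arc stood above Nr4a1 in the mean but was the higher of the pair in 21.6% of cells and the lower in 35.2%. Fos against Junb (higher in 87.9% of cells, lower in 11.4%) and Egr1 against Fosb (75.4% and 19.7%) differed in most cells.

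Cells differed in how many of the 10 genes were positive, and both ends of this range were fuller than independent use of the genes would give. The most common number was 4, in 28.6% of cells, and 60.8% (56.2% to 65.2%) had 4 or more. From 0 to 3 members the numbers of cells were 26, 39, 53 and 67, from 5 to 8 members they were 99, 39, 11 and 3, and no cell had 9 or 10. Drawing each gene on its own with its share in each run gives 16.7 cells with 0 or 1 member, where 65 were counted, and 23.5 cells with 6 or more, where 53 were counted. Cells with more positive genes in all also had more of the 10. When shares were taken within run and within tertiles of the number of positive genes, an alternative added after the first counts were seen, the numbers became 33.1 and 34.2, nearer to those counted but still below them. No other set of 10 genes was counted in this way, so the fuller ends have no background here.

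**Figure D2:**
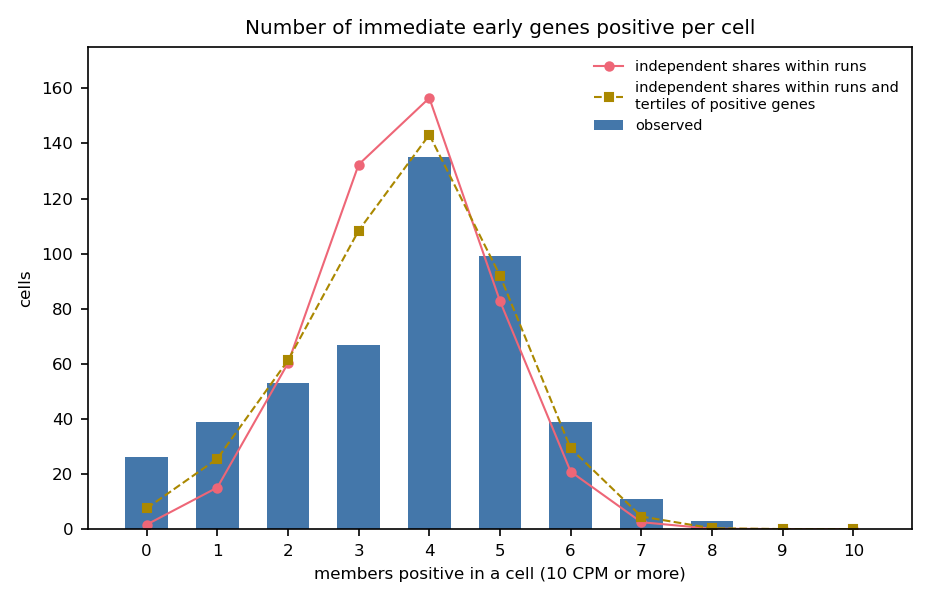
Number of cells on the vertical axis by the number of immediate early genes at 10 CPM or more on the horizontal axis; bars are the counted cells, circles the number that independent shares within runs give, and squares the number with shares within runs and tertiles of positive genes. The bars stand above both lines at 0 and 1 and at 5 to 8 members, and below both at 2 to 4.

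Fos, Egr1, Junb and Fosb, called the quartet here, made up the most frequent combination. All 4 were positive in 220 cells (46.6%, 42.04% to 51.2%), and exactly these 4 with none of the others in 87 (18.4%), the most frequent of 81 combinations. The quartet with Nr4a1 alone was found in 34 cells, with Npas4 alone in 27 and with Arc alone in 17. Of the middle group, 140 cells had 1 of Arc, Npas4 and Nr4a1, 51 had 2, 10 had all 3 and 57.4% of cells had none. In the 26 cells without any member the median was 2307 positive genes (highest 5992) and the median spike-in share was 2.71%, against 0.738% in all cells. Of these 26 cells 7 had under 1000 positive genes and 8 had 3000 or more, and 9 came from run D. The part of RNA content in their lack of members was not tested.

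The less common genes were mostly found where Fos, itself positive in 86.4% of all cells, was also positive. Fos was positive in 98.2% of the Nr4a1-positive cells, 89 of the 92 with Npas4, 63 of the 68 with Arc, 17 of the 18 with Nr4a3 and all 8 with Egr3. Independent shares within runs and tertiles of positive genes give 83.4 cells for Fos with Npas4 and 6.97 with Egr3. For Arc and Nr4a3 they give 62.6 and 16.6, close to the numbers counted, and for Nr4a1 100.7 where 110 were counted. Nr4a2 was the exception, with Fos positive in 8 of its 11 cells, a share of 72.7% where Fos was positive in 86.4% of all cells. With 11 cells this share is coarse. None of the cells with Npas4, Egr3 or Nr4a2 lacked every other member, while Arc was alone in 2 cells and Nr4a1 and Nr4a3 in 1 each.

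Of the 45 pairs, 33 were expected in 5 or more cells from independent shares within runs, and 32 of these met more often than that. The exception was Fos with Nr4a2 (8 cells, 9.32 expected). The highest ratio was that of Npas4 and Nr4a1, found together in 38 cells against 21.5 expected, which was 41.3% of the cells with Npas4 and 33.9% of those with Nr4a1. Arc and Npas4 met in 22 cells against 13.2, and Fosb and Npas4 in 81 against 61.9. Fos and Egr1, both common, met 1.09 times as often as independent shares give. With tertiles of positive genes added to the runs, 30 of the 32 pairs stayed above the expected number, with 24.1 for Npas4 and Nr4a1, 15.7 for Arc and Npas4 and 67.2 for Fosb and Npas4. Such counts were not made for pairs of other genes, so 32 of 33 has no background here. The median rho of a member with all genes positive in 10% or more of cells ran from 0.02 for Egr3 to 0.11 for Fosb.

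Levels gave their 5 highest correlations within the quartet, while its sixth pair, Fosb and Junb, lay among the values of Nr4a1 and Npas4 with the quartet. The Spearman rho of CPM over all cells, which share runs and depth, was 0.67 for Fos and Egr1, 0.55 for Fos and Fosb, 0.49 for Egr1 and Junb, and 0.46 for both Fos with Junb and Fosb with Egr1. Fosb and Junb had 0.26. Nr4a1 came next to the quartet, with 0.30 to Fos and 0.28 to Egr1. Npas4 had 0.27 to Fosb and 0.24 to Fos but 0.07 to Junb. The median over all 45 pairs was 0.10, and the values for Egr3, Nr4a2 and Nr4a3, which are at 0 in most cells, are too sparse to read. Ranks taken within runs gave 0.65 for Fos and Egr1 and 0.54 for Fos and Fosb, and partial values given the number of positive genes 0.66 and 0.54.

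**Figure D3:**
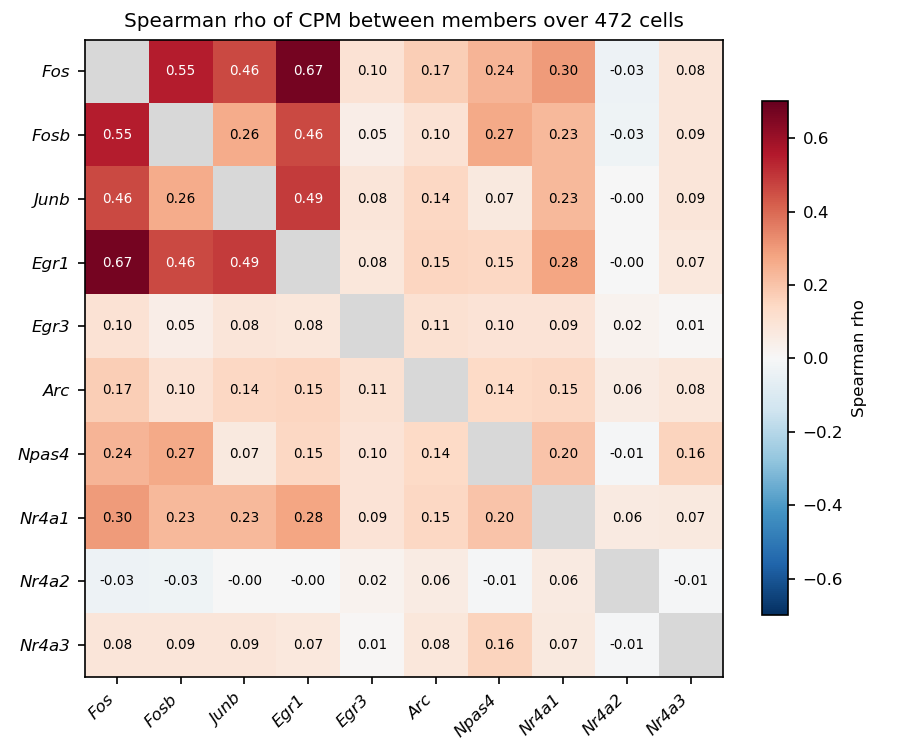
Spearman rho of CPM over all cells between each pair of the 10 immediate early genes, with genes on both axes and the value printed and coloured in each square. The 5 darkest squares lie among Fos, Fosb, Junb and Egr1, led by 0.67 for Fos and Egr1, and Fosb with Junb (0.26) is paler than Fos with Nr4a1 (0.30); Egr3, Nr4a2 and Nr4a3 are pale throughout.

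Among 11149 genes positive in 10% or more of cells, the genes most like Fos in pattern were largely other members. Its 5 nearest were Egr1, Fosb, Dusp1 (0.52), Junb and Malat1 (0.43), where the median over the other 11148 genes was 0.06 and the 95th percentile 0.20. Dusp1 encodes a phosphatase that switches off MAP kinases and is itself an immediate early gene, and Malat1 is an abundant nuclear noncoding RNA. The nearest to Egr1 were Fos, Junb, Fosb, Dusp1 (0.46) and Gm42418 (0.36), and the nearest to Junb were Egr1, Fos, Cstf2 (0.32), Dusp1 (0.31) and Btg2 (0.30). The nearest to Nr4a1 were Fos, Egr1, Ier2 (0.24), Junb and Fosb. For these 4 genes between 2 and 4 of the 5 nearest were members, out of 11148 candidates.

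By unadjusted rho, Fosb and Npas4 differed from that pattern. Among the nearest to Fosb were Gm42418 (0.57), Fos (0.55), Gm26917 (0.53) and Srrm2 (0.48), and Egr1 was at rank 11. Gm42418 and Gm26917 are noncoding genes on chromosome 17, and Srrm2 encodes a protein of the spliceosome. The background for Fosb was also higher, with a 95th percentile of 0.27. The nearest to Npas4 were Arhgap33 (0.27), Fosb (0.27), Arxes1 (0.26), Cacna1c (0.25) and Tmem63c (0.25). Cacna1c encodes a pore subunit of L-type calcium channels, and Arhgap33 a GTPase-activating protein. These values are low over a gene that most cells lack. Given the number of positive genes, Fosb and Fos were at ranks 1 and 2 for Npas4 (partial 0.22 each), Arhgap33 at 7 and Tmem63c at 10. For Fosb, Fos was then at rank 1, Gm42418 at 2 and Egr1 at 8.

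Likeness to Malat1 and other abundant RNAs was higher in the quartet than in Npas4, Arc or Nr4a1. The rho with Malat1 was 0.43 for Fos, 0.48 for Fosb, 0.35 for Egr1 and 0.25 for Junb, but 0.09 for Nr4a1, 0.03 for Npas4 and 0.02 for Arc. Meg3, Snhg11 and Gm26917 gave 0.22 to 0.53 for the quartet and 0.13 or less for those 3 genes. Npas4, Arc and Nr4a1 are at 0 in most cells, which limits this comparison. Their highest rho with any gene was 0.27, 0.21 and 0.30, against 0.49 for Junb to 0.67 for Fos in the quartet. For 3 of the 6 pairs within the quartet, rho was also taken with Malat1 held constant beside the number of positive genes, an alternative added after these values were seen. It was 0.61 for Fos and Egr1 and 0.44 for Egr1 and Junb, where the unadjusted values were 0.67 and 0.49. For Fos and Fosb it was 0.43, lower by more than 0.1 than the unadjusted 0.55.

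The other genes of the activity pathway were taken as 6 lists, and each gene was set against the mean log2(CPM + 1) of the 10 members. For a member, its own value was left out of the mean. Over the 11142 other genes positive in 10% or more of cells the median rho was 0.13, and 0.02 as a partial value given the number of positive genes. Those medians are the background for each list.

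Other early genes stood above this background. Of 16 other early transcription factors 7 were positive in 10% or more of cells, with a median rho of 0.27 (partial 0.21). Ier2 (0.40) and Btg2 (0.39), both early response genes, and Jun (0.39), the AP-1 partner of Fos, were highest, and Klf10 (0.06), Nfil3 (0.14) and Klf6 (0.18) lowest. Jun was positive in 66.5% of cells, Klf6 in 61.02% and Jund in 58.9%, whereas Maff was positive in 2 cells and Fosl1 in 1. The other Egr genes were rare like Egr3: Egr4 was positive in 6.14% of cells and Egr2 in 1.27%. Of 15 early signalling and RNA genes 12 passed the same limit, with a median of 0.23 (partial 0.14). Dusp1 was highest (0.53, positive in 77.3% of cells), followed by Dusp6 (0.32), another MAP kinase phosphatase, Zfp36 (0.29), which promotes mRNA decay, and the kinase gene Plk2 (0.28). Homer1 (0.05), a synaptic scaffold gene, Rgs2 (0.17) and Trib1 (0.18) were lowest. Ptgs2, an early gene of cortical neurons, was positive in 0 cells, so a share of up to 0.636% is allowed, and its highest level was 2.48 CPM.

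Genes of the later response did not, as a list, stand above the background. Their median rho was 0.09 over the 9 of 10 that passed the limit (partial 0.002). Vgf, a secretory granule protein gene, had 0.27 and Nptx1, a neuronal pentraxin gene, 0.21, where the 95th percentile over 11149 genes was 0.26. Bdnf, the neurotrophin gene and a known target of Npas4, had 0.03 to the mean of all members and was positive in 39.2% of cells. Its rho with Npas4 alone is not given here. Nrn1 had 0.03 and was positive in 88.3%. Scg2, Nptx2, Gpr3, Pcsk1 and Rasgrp1 had 0.14, 0.12, 0.09, 0.08 and 0.04, and Inhba was positive in 5 cells.

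Genes that act upstream were common and lay near the background. All 19 calcium, CREB, SRF and MEF2 pathway genes passed the limit, with a median of 0.17 (partial 0.05). Crebbp, the CREB-binding protein gene, had the highest value (0.27) and Srf the second (0.23), then Elk1 (0.21) and Ppp3ca (0.20), while Crem (0.10), Crtc1 (0.11) and Mef2c (0.12) were lowest. Creb1 itself was positive in 27.8% of cells with a rho of 0.15. Of 9 partners and corepressors of the members, Jun, Arnt (0.36) and Jund (0.27) stood out from a median of 0.08 (partial -0.01). Arnt and Arnt2 both encode partners of Npas4, and Arnt2 had 0.08. The Egr corepressor genes Nab1 and Nab2 had 0.03 and 0.07, and the retinoid receptor genes Rxra, Rxrb and Rxrg 0.14, 0.08 and 0.08.

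**Figure D4:**
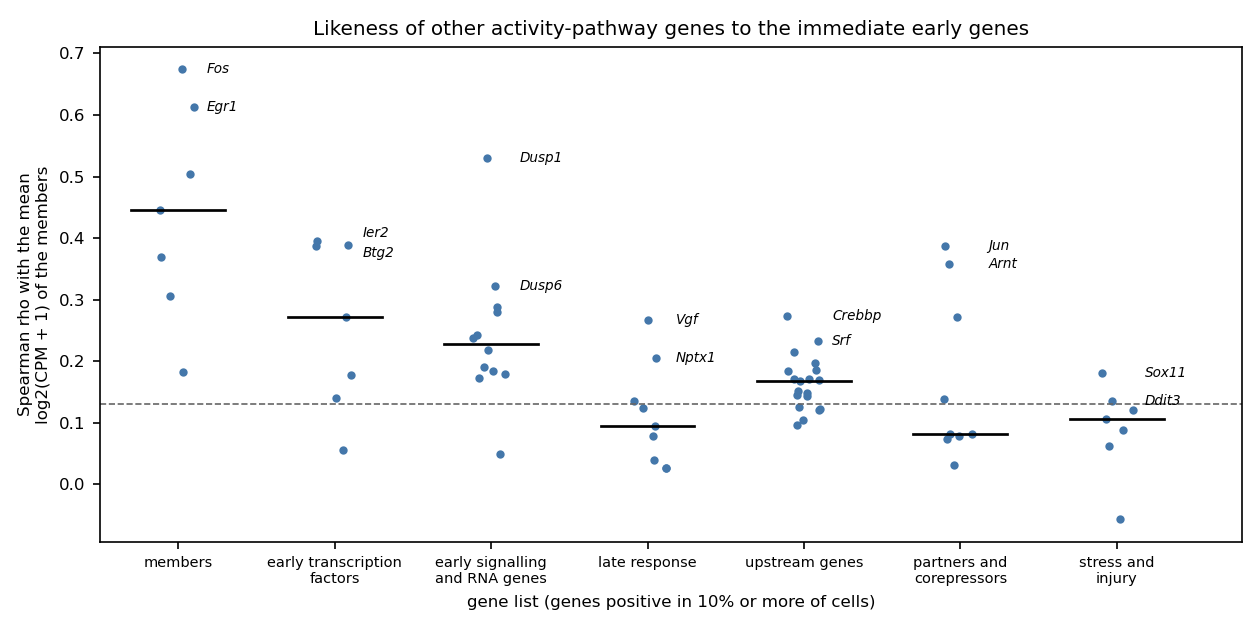
Spearman rho over all cells between each gene and the mean log2(CPM + 1) of the 10 immediate early genes on the vertical axis, by gene list on the horizontal axis; points are genes positive in 10% or more of cells, black bars list medians, and the dashed line the median of 0.13 over 11142 other genes. Jun and Jund are in 2 lists. The early transcription factors and early signalling genes have medians of 0.27 and 0.23, against 0.09 for the late response.

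The share of cells with each member was next set beside markers of ganglion cell classes. The sets overlap, cells in a set are not replicates, and no difference was tested. The 50 cells with 3 or more of 4 markers of ON-OFF direction-selective cells had the highest shares among the 8 marker sets for 6 of the 7 more common members: 92% for Fos, 88% for Egr1, 82% each for Fosb and Junb, 42% for Nr4a1 (28.2% to 56.8%) and 34% for Npas4 (21.2% to 48.8%). The shares in all cells were 86.4%, 76.9%, 66.1%, 68.6%, 23.7% and 19.5%. The median Fos level in this set was 685.3 CPM, against 445.9 CPM in all cells. Its cells had a median of 6115.5 positive genes and 62% came from run A. Among cells with 3000 or more positive genes its Fos share (93.9%) was below that of the alpha set (94.3%), while it was still the highest marker set for Egr1 (87.8%), Nr4a1 (42.9%) and Npas4 (34.7%). Arc was instead highest in the 75 cells with Opn4 or Eomes, markers of melanopsin-class cells, at 22.7% (13.8% to 33.8%), where Fos was positive in 84% and the median number of positive genes was 5991. At a threshold of 100 CPM this order turned, with Arc in 6.67% of these cells and in 10% of the direction-selective set.

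The lowest shares among cells with class markers belonged to the 79 Tbr1-positive cells for Nr4a1 (13.9%, 7.16% to 23.5%) and Npas4 (15.2%, 8.10% to 25.03%), while Fos was at 88.6% and Egr1 at 81.01% there. At 100 CPM the lowest set was another one, the F-RGC set, with 0% for both genes where the Tbr1-positive cells had 1.27% and 2.53%. Cells with 3 or more of 5 alpha markers, the largest set with 49.4% of cells, lay within 5 percentage points of all cells for the 7 genes. The 34 cells with 2 or more F-RGC markers had Fos in 82.4% and Egr1 in 70.6%. Outside all sets, 85 cells had lower shares, with 78.8% for Fos, 54.1% for Fosb, 56.5% for Junb and 8.24% for Arc. These cells also had fewer positive genes (median 4137) and a higher spike-in share (median 1.41%). Among cells with 3000 or more positive genes, those outside all sets had Fos in 94.1%, Egr1 in 88.2% and Npas4 in 23.5%, no lower than the 92.7%, 82.2% and 22.6% of all cells with that many, while Nr4a1 (21.6% against 26.1%) and Arc (13.7% against 16.3%) were still lower.

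**Figure D5:**
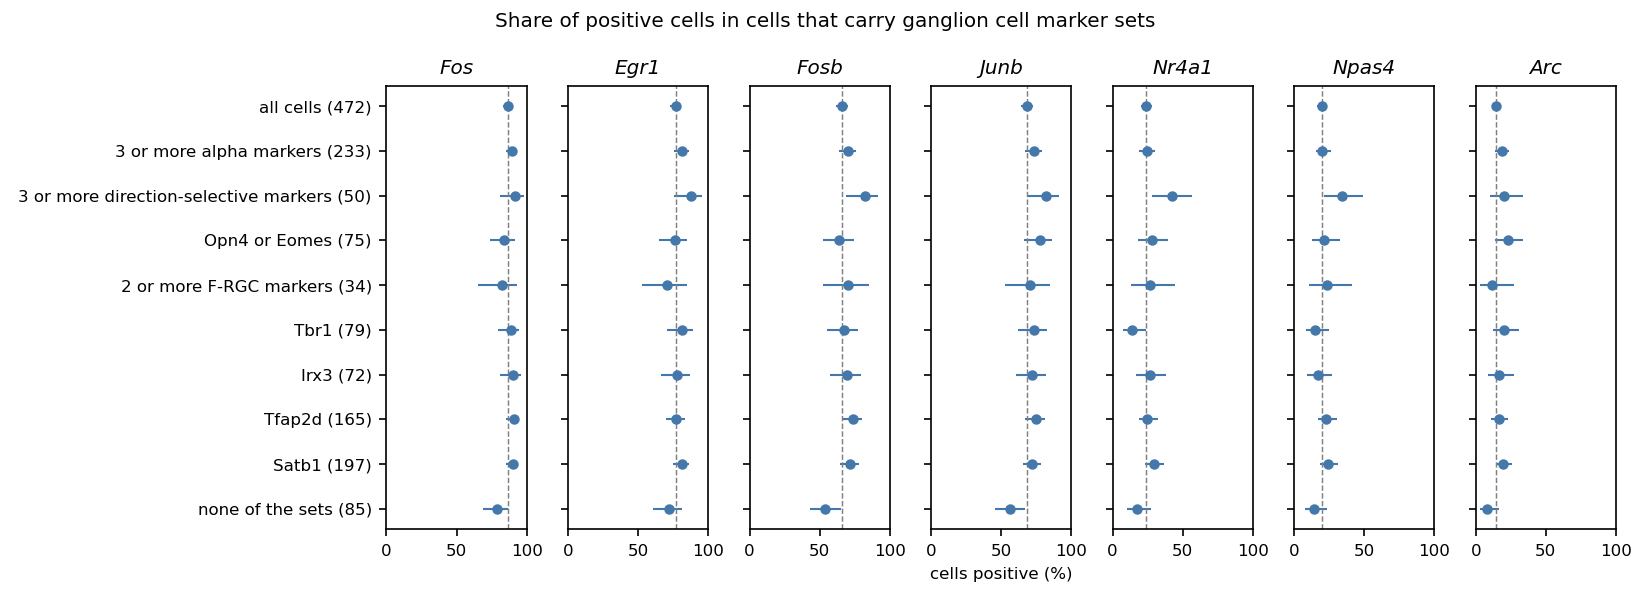
Percent of cells positive on the horizontal axis for 7 immediate early genes, by set of ganglion cell markers on the vertical axis with the number of cells in brackets; points are shares, bars exact 95% intervals that cover counting error only, and dashed lines the share in all cells. The direction-selective set lies farthest right for every gene shown but Arc, and the cells in none of the sets lie left of the dashed line for all 7.

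The number of positive genes, a count of genes at 10 CPM or more that includes the members, went with the share of cells positive for every common member. When the cells were ordered by positive genes and cut into 4 equal groups, the lowest group (up to 4070 positive genes) and the highest (6577 to 8937) had Fos in 64.4% and 95.8% of cells and Egr1 in 57.6% and 88.98%. For Junb these shares were 44.9% and 86.4%, for Fosb 37.3% and 85.6% and for Npas4 5.93% and 29.7%. The mean number of members was 2.36 in the lowest group and 4.47 in the highest. Groups by spike-in share differed from this. Over 4 equal groups from the lowest spike-in share to the highest, the mean was 3.81, 3.99, 3.75 and 3.0. Fos was positive in 90.7%, 90.7%, 93.2% and 71.2% of the cells of these groups. Over 4 equal groups by gene counts, the mean number of members was 3.68, 3.59, 3.65 and 3.62, but single genes differed: from the shallowest to the deepest group the share was 81.4% and 89.8% for Fos, and 29.7% and 17.8% for Nr4a1. The rho of the number of members was 0.46 with positive genes, -0.01 with gene counts and -0.19 with the spike-in share. The CPM level had weak relations of both kinds. With positive genes rho was 0.12 for Fos, 0.11 for Egr1, 0.15 for Junb, 0.27 for Fosb, 0.22 for Npas4 and 0.12 for Nr4a1 and for Arc. With gene counts it was -0.12 for Fos, -0.13 for Egr1, Fosb and Nr4a1, -0.01 for Junb, 0.04 for Npas4 and -0.002 for Arc, so for Fos, Egr1 and Nr4a1 the level was related to depth as much as to positive genes, in the opposite direction.

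RNA of other retinal cells was common in the libraries, and its summed level had little relation to the mean level of the members. A library counted as carrying a type when 3 or more of its markers were positive. This held for Müller glia in 79.4% of libraries, rods in 59.7%, bipolar cells in 34.3%, amacrine cells in 26.3% and cones in 10.4%, and in 22 libraries or fewer for erythrocytes, microglia, astrocytes and vessels. The rho between the summed markers of a type and the mean of the members lay between -0.03 for Müller glia and 0.10 for vessels. Rod markers summed to 0 to 197508 CPM with a median of 397.8 CPM. Fos was positive in 87.9% of cells with 3 or more rod markers and in 84.2% of the rest, and Npas4 in 21.3% and 16.8%. The gap was wider for Müller and cone markers: Fos was positive in 90.7% of cells with 3 or more Müller markers and in 70.1% of the rest, Egr1 in 80.3% and 63.9%, and Fos in all 49 cells with 3 or more cone markers and in 84.9% of the rest. For bipolar markers the Fos shares were 88.3% and 85.5%, and for amacrine markers 88.7% and 85.6%. Fos was positive in all 11 cells with microglia markers and 86.1% of the rest, but in 68.2% of the 22 with erythrocyte markers and 87.3% of the rest. The cells with Müller markers had a median of 5834 positive genes and the rest 3780, and those with cone markers 6697 and the rest 5442. The rho between the number of Müller markers and the number of members positive was 0.21. The part of positive genes in these gaps was not tested.

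Cells positive for Nr4a2 carried markers of several neighbouring cell types more often than all cells did. Of the 11 cells, 81.8% had 3 or more rod markers (59.7% of all cells), 27.3% cone markers (10.4%), 45.5% bipolar markers (34.3%) and 100% Müller markers (79.4%). The gap was widest for amacrine markers. Of the 11 cells 8 (72.7%) had 3 or more of 7 amacrine markers, against 25.2% of the other cells. Among the 7, the GABA synthesis genes Gad1 and Gad2 were positive in 9 and 6 of the 11 (41.2% and 27.5% of the other cells), and the transcription factor genes Tfap2b and Tfap2a in 8 and 6 (32.1% and 15.6%). The glycine transporter gene Slc6a9 was positive in 4 (22.3%) and Chat, of acetylcholine synthesis, in 2 (7.16%), while Slc32a1, the vesicular transporter gene of inhibitory transmitters, was in 2 (18.2%) and in 17.1% of the other cells. The summed amacrine level had a median of 279.4 CPM (0 to 1957) in the 11 cells and 67.1 CPM (0 to 2836) in the others. All 11 were positive for 6 or more of the 12 ganglion cell genes, and their median number of positive genes was 6722 against 5494. For Nr4a1 the amacrine shares were 26.8% in positive and 26.1% in negative cells. Whether amacrine RNA has a part in the Nr4a2 reads was not tested.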

How the data were processed

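Single-cell RNA-seq of patched retinal ganglion cells was used, each library being 1 cell. The authors deposited estimated counts per gene and cell, 1.37% of which were not whole. Reads were aligned with STAR 2.7.0 to mm10, per the submitters' processing notes. For the counting tool and gene annotation, names were not given in the sources used here. Rows were joined to samples through the key that the authors deposited, and 0 rows stayed unmapped.

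Estimated counts were rounded and divided by each cell's sum over genes, spike-ins left out, to give CPM. All 55450 identifiers are in GENCODE mouse release 21, which gave positions and exon lengths. No cell was left out. The log scale used a pseudocount of 1 CPM. With 1 group counted as 1 sample, no test was made and no p-value computed. Shares carry Clopper-Pearson 95% intervals, and a share of 0 the limit that 3 counts allow. The number of cells expected for a pair was the product of both genes' shares in each run, summed over runs.

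The members and gene lists were chosen with earlier results of these data known. Named are all members, all genes of lists of up to 10, of longer lists the 4 highest and 3 lowest by share or rho, and the 5 genes nearest to each member and 20 nearest to their mean among genes positive in 10% or more of cells. 1 gene that this rule names is not reported here. Other thresholds, depths, cell filters and runs were tried. Scripts were tested on simulated data. The tools were matplotlib 3.10.9, pandas 2.3.3, scipy 1.17.1, numpy 2.4.6 and Python 3.11.15.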

Additional observations from a re-analysis of the deposited data

How the results depend on the processing

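No test was made, so results are compared by value: a share was taken as moved when it left the interval of its reported value, a rho when it differed by 0.1 or more, and a count of pairs by over 1.5 times. The threshold moved most shares. At 1 CPM the share was 91.5% for Fos, 71.8% for Fosb, 75% for Junb, 82.4% for Egr1, 4.03% for Egr3, 29.2% for Nr4a1, 4.87% for Nr4a2, 6.99% for Nr4a3 and 68.2% for 4 or more members. At 100 CPM these were 80.1%, 31.6%, 35.6%, 53.4%, 0.212%, 7.63%, 0.424%, 0% and 20.3%, with 6.57% for Arc and 4.03% for Npas4, and 18 of 18 pairs were above the expected number. In cells with 3000 or more positive genes the shares were 92.7% for Fos, 74.2% for Fosb, 75.9% for Junb, 82.2% for Egr1 and 69.4% for 4 or more members. Without run A they were 78.99%, 59.7%, 62.2%, 67.6% and 49.6%, and 11.3% for Arc, and without run B 65.2% of cells had 4 or more members. Given the number of positive genes, the median rho to the members was 0.049 for upstream genes and 0.00571 for stress genes, and for partners and corepressors it turned from 0.08 to -0.011. Given Malat1 as well, an alternative chosen after seeing the data, Fos and Fosb had 0.43 in place of 0.55. The cause of these moves was not tested, beyond the change of threshold or cells that each setting makes.

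The other values behind the main comparisons stayed within these ranges. Among them was every one after thinning to 1000000 gene counts, with counts as deposited and without run C, D or E. The same held with mitochondrial genes and a chosen few ribosomal RNA loci left out of the total, though not Gm42418 or Gm26917. For the shares in marker sets 47 stayed and 43 moved, 39 of them at 100 CPM. No paired analysis was possible because there is 1 group. The number of positive cells limits the rare genes most: with 8 to 18 such cells for Egr3, Nr4a2 and Nr4a3, intervals span a factor of more than 2. A sum of counts without molecular identifiers gives no error for a single cell.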

Other observations

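The listed stress and injury genes, which can accompany immediate early genes, showed little likeness to them. Of 11 listed entries 7 were positive in 10% or more of cells, with a median rho to the members' mean of 0.11 (partial 0.00571 given the number of positive genes), against 0.13 over 11142 other genes. Sox11, a transcription factor of neuronal growth, was highest at 0.18, Ddit3 had 0.14 and Atf4, its activator in the integrated stress response, 0.12. Gadd45a, Hspb1 and Hspa1a had 0.11, 0.09 and 0.06, and the neuropeptide gene Gal was lowest at -0.06. Jun (0.39) and Atf3 (0.18, positive in 9.75% of cells) were placed among the early transcription factors and are not in this list. Atf4 was positive in 70.3% of cells and Ddit3 in 53.6%. The injury genes Sprr1a and Ecel1 were positive in 0 cells, so a share of up to 0.636% is allowed.

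Beside the members, Dusp1, Ier2, Btg2 and Jun, the 20 genes nearest to the members' mean included Gm26917 (0.43), Vwa5b2 (0.41), Pan2, Srrm2, Gm42418, Tmem181b-ps, A230103L15Rik and Srsf11 (0.40 each), Ttc14, Snhg11 and Meg3 (0.39 each). Pan2 encodes a deadenylase subunit, and Srrm2 and Srsf11 encode splicing proteins. For Arc the nearest genes were Gm43581, Gm2115, Smap2, Tmem168 and Actn1, at 0.20 to 0.21, with Fos at rank 29 (0.17). The correlation for Arc and for the rarer members is low over these sparse counts and is given as a value only. The nearest to Egr3 was Tube1 (0.19), to Nr4a2 Kcnv2 (0.22) and to Nr4a3 Synm (0.21).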
